A study of Mus musculus with 31 samples.

Results

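Liver mRNA of 9 genes that build and clear triglyceride-rich lipoproteins was compared between mice lacking ChREBPβ, mice lacking both ChREBP isoforms, and their WT littermates. The genes were Mttp, Apob, Tm6sf2, Apoa4, Apoa5, Apoc2, Apoc3, Angptl4 and Lpl. They were taken by name among the probes that passed the filter on weak spots. This gave 21 of the 36059 probes kept and 9 of 23968 gene names. Any probe of these genes that failed the filter is left out, and none of the 21 was saturated.

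ChREBP, encoded by Mlxipl, is a transcription factor of liver and fat that responds to glucose, and its β isoform is a shorter form transcribed from a promoter of its own. The study asked what is lost in the liver when ChREBPβ alone is absent, compared with the absence of all ChREBP. One-color Agilent microarrays were hybridized with liver RNA of 31 male C57BL6/J mice, each mouse on its own array. In 8 ChREBPβ-deficient mice CRISPR/Cas9 had removed exon 1b of Mlxipl, and 8 WT littermates came from the same line. The other line gave 7 total ChREBP-KO (Mlxipl-null) mice and 8 WT littermates. Every mouse, controls included, ate a regular diet, was fasted for 24 hours and was then refed for 18 hours with food and water holding 20% glucose. Both deletions were present in all tissues of the body and not in hepatocytes alone. The age of these mice is not given in the sources used here.

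Apolipoprotein B is the structural protein of very low density lipoprotein (VLDL), onto which the microsomal triglyceride transfer protein Mttp loads lipid in the endoplasmic reticulum, and Tm6sf2 acts in that loading. Secreted particles carry small exchangeable apolipoproteins that set how fast their triglyceride is used. Lipoprotein lipase, Lpl, hydrolyses that triglyceride on capillary walls. Apoc2 is its obligatory cofactor, Apoa5 promotes its action, and Apoc3 and Angptl4 restrain it. Lpl is made mainly in muscle and fat, and the adult liver holds little of it.

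RefSeq promoter windows on mouse build GRCm38.p6 were at hand for 5 of the 9 genes (Mttp, Apob, Apoa4, Apoa5 and Apoc2). Those of Mttp, Apoa4, Apoa5 and Apoc2 are printed, since their genes carry the largest differences below or hold one of the motifs searched. Each is the 250 bases before the transcript start, read 5′ to 3′ along the gene, in lower case with matches in capitals.
Mttp, minus strand, chr3:138143419-138143668: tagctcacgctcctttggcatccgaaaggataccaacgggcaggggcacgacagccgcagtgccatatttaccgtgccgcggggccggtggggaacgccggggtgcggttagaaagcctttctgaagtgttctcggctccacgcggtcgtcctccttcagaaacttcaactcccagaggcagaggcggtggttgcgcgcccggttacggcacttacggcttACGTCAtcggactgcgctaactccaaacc
Apoa4, plus strand, chr9:46240594-46240843: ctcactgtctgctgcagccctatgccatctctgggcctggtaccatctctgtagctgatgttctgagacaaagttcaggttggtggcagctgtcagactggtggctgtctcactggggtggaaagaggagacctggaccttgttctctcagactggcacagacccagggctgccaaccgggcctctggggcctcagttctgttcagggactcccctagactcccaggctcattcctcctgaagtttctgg
Apoa5, plus strand, chr9:46268358-46268607: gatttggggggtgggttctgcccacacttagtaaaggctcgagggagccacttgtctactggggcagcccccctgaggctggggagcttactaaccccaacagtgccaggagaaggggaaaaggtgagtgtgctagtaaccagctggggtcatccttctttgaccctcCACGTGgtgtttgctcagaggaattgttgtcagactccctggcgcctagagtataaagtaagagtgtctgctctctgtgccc
Apoc2, minus strand, chr7:19677942-19678191: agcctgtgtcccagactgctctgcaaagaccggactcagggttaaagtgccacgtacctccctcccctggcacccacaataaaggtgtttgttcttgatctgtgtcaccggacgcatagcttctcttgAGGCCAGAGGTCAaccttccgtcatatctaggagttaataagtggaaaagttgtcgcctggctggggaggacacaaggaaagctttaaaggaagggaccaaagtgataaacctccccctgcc

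The motifs searched on both strands were the E-box CACGTG, the carbohydrate response element (a pair of E-box-like pieces across a short spacer, the element through which ChREBP acts), the nuclear receptor direct repeat 1 in a strict and a looser form, and the cAMP response element TGACGTCA with its shorter form TGACGT. A strict or full match also counts under the looser or shorter form. The E-box lay 82 to 77 bases before the Apoa5 start, and 6.02% of all 32851 windows of this length hold one. The shorter cAMP element lay on the opposite strand 29 to 24 bases before the Mttp start, as in 6.47% of windows. The looser receptor repeat lay 122 to 110 bases before the Apoc2 start, as in 0.338% of windows. The carbohydrate response element, which 0.28% of windows hold, was not found in the windows of these 5 genes. The windows of Apoa4 and Apob held none of the motifs. These matches describe the letters of the windows and are not binding sites.

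Values are log2 signals after quantile normalization over the 31 arrays, and differences are log2 differences between group means. A gene was counted by its leading probe, the one with the highest mean over all arrays. A difference was called when the adjusted p of limma over all 36059 probes was under 0.05. Signals of different probes are not compared with each other. In whole liver, fewer cells of a type and less RNA per cell cannot be told apart.

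The arrays were alike, with correlations from 0.980 to 0.999, and lay on 15 slides scanned on 2 days, each day with arrays of all 4 groups. The leading probe of Mlxipl fell by 1.16 with total loss (limma adjusted p = 8.05e-13) and by 0.45 with loss of the β isoform (adjusted p = 0.0152), the direction the labels give. Of its other probes, A_55_P2728555 gave -0.59 (adjusted p = 0.00313) and -0.46 (adjusted p = 0.909), and A_55_P2045158 gave -0.05 (adjusted p = 0.60) and -0.06, also not called. The leading Mlxipl probe still read a mean of 14.12 in total ChREBP-KO mice, beside 15.28 in their WT littermates. The bright hepatocyte markers Alb, Ttr, Cps1, Cyp2e1 and Apoh were well above background on all 31 arrays. In total ChREBP-KO mice 3 of the 5 were higher (14.4% of all gene names). WT replicate 2 of the total ChREBP-KO line stood apart in its exocrine pancreas markers. The log2 of their summed signals was 14.22 there, whereas the median of its group was 11.67 and the highest of the total ChREBP-KO mice 12.15. The marker sums given below are on this scale too, on which the brightest markers weigh most.

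In total ChREBP-KO mice, 3 of the 9 genes were lower than in WT littermates (14.8% of all gene names), 0 were higher (14.4%) and 6 were not called. The genes that fell were Apoa4, Tm6sf2 and Mttp. Over all gene names the share called in either direction was 29.3%. The median difference of the 9 genes was -0.08, and that of all genes 0.0078. At the level of probes, 5 of 21 were lower (14.6% of all probes) and 1 was higher (14.5%). The 2 groups overlapped for all 21, whereas they were fully apart for 7.4% of all probes. In ChREBPβ-deficient mice 0 of 9 genes (0.00417% of gene names) and 0 of 21 probes were called (0.00277% of all probes, which is 1 probe), and 0 of the 21 had an unadjusted limma p under 0.05 (4.98% of all probes). No probe had groups fully apart there either (0.0222% of all probes). The exact Mann-Whitney test gave 2 member probes at that unadjusted level, both of Lpl (6.13% of all probes), and 0 after adjustment.

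**Figure D1:**
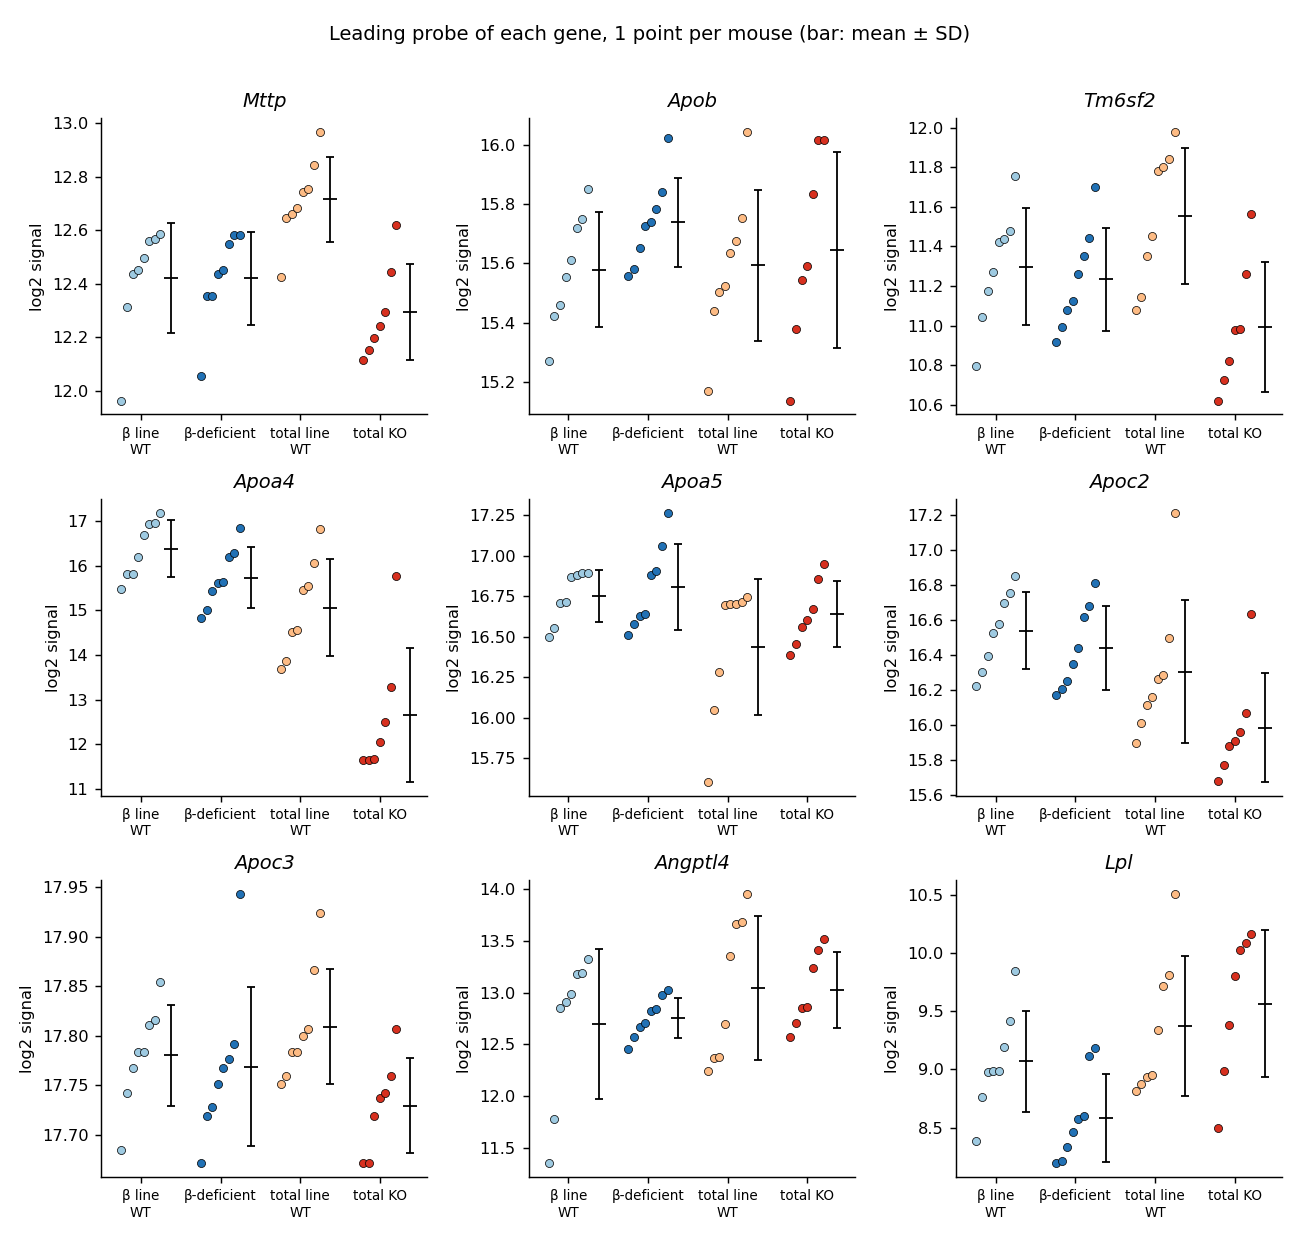
Normalized log2 signal of the leading probe of each gene (vertical axes, each with its own range) in the 4 groups, with 1 point per mouse and the mean ± SD at the right of each group. In Apoa4, 6 of the 7 total ChREBP-KO mice lie below all their WT littermates and replicate 7 lies at 15.77 among them.

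**Figure D2:**
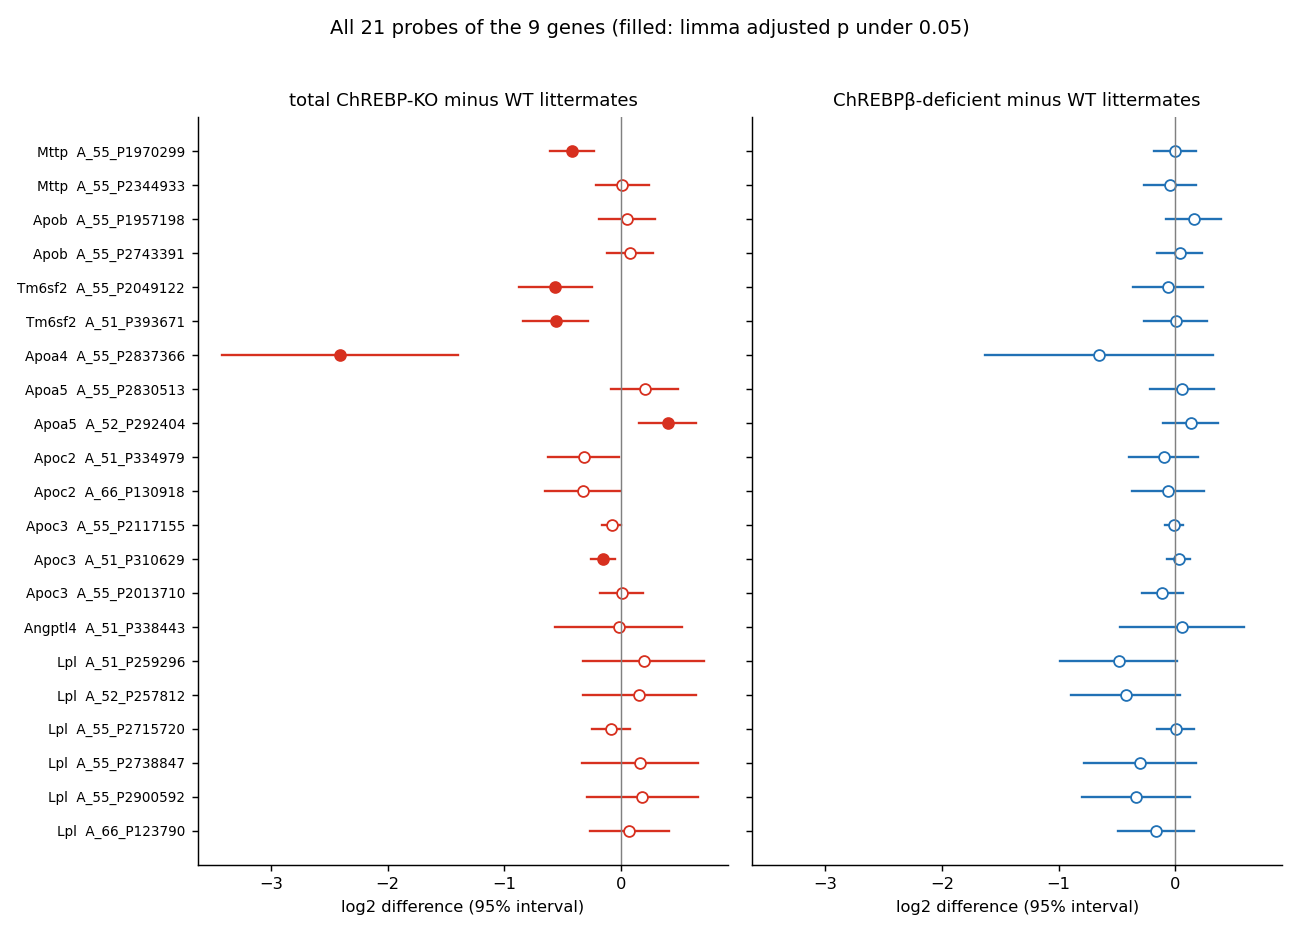
Log2 difference (horizontal axis) with its 95% interval for all 21 probes, in the total ChREBP-KO line at the left and the ChREBPβ line at the right, where filled circles are called by limma. The 6 filled circles are all in the total ChREBP-KO line, and Apoa4 has the longest interval there, from -3.42 to -1.40.

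Mttp, the transfer protein that loads lipid onto apolipoprotein B, was 1.34-fold lower in total ChREBP-KO mice. Its leading probe, A_55_P1970299 (mm9 chromosome 3, 137753868 to 137753927, minus strand), had a lowest, median and highest log2 signal of 12.12, 12.24 and 12.62 in total ChREBP-KO mice and of 12.42, 12.71 and 12.97 in their WT littermates. The KO mice were the low group, with 5 of 7 below all WT and 7 of 7 below the WT median, although the ranges overlapped. The difference was -0.42 (SE 0.09, limma adjusted p = 0.000732), between means of 12.29 ± 0.18 (SD, n = 7) and 12.71 ± 0.16 (SD, n = 8). In the ChREBPβ line the levels were 12.06, 12.44 and 12.58 in deficient mice and 11.96, 12.47 and 12.59 in WT littermates. These groups lay on top of each other, with a difference of -0.0012 and a 95% interval from -0.18 to 0.18.

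The change of Mttp differed between the 2 deficiencies by -0.42 (limma adjusted p = 0.0229). Of the 9 leading probes, 1 was called lower in that test (8.25% of all gene names) and 0 higher (7.09%). The WT groups were themselves apart: Mttp was higher by 0.29 in the WT mice of the total ChREBP-KO line than in those of the ChREBPβ line (adjusted p = 0.021), the 1 leading probe of 9 called higher there (7.79% of gene names), with 0 called lower (9.36%). In order of the means, WT mice of the total line stood alone at 12.71 and both groups of the ChREBPβ line shared 12.42. The total ChREBP-KO mice at 12.29 were within the spread of those. The call between the WT groups was lost without WT replicate 2 of the ChREBPβ line (0.23, adjusted p = 0.0547) and without WT replicate 4 of the total line (0.26, adjusted p = 0.0518), and the difference of the deficiencies was not called with the slide as a fixed block (-0.29, adjusted p = 0.28). On scan day 1 alone the KO mice gave -0.43 (adjusted p = 0.0702) and on day 2 alone -0.41 (adjusted p = 0.0022). On 4 slides both groups of the total line were present, each with a single mouse. There the KO mouse was lower on 3 and higher on 1, with differences from -0.85 to 0.20. A dimmer Mttp probe, A_55_P2344933 (ENSMUST00000197680), was well above background on 23 of 31 arrays and gave 0.01 (SE 0.11) in the total line. Its deviations followed those of the leading probe only loosely, with r = 0.45 over 31 arrays after subtraction of group means.

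Apob itself showed no called difference in either probe. The leading probe, A_55_P1957198 (mm9 chromosome 12, 8012697 to 8012756), had a lowest, median and highest log2 signal of 15.14, 15.59 and 16.01 in total ChREBP-KO mice and of 15.17, 15.58 and 16.04 in WT littermates. The 2 groups covered the same range. The difference was 0.05 with a 95% interval from -0.19 to 0.29, and the other probe gave 0.08 (-0.12 to 0.28). In ChREBPβ-deficient mice the leading probe differed by 0.16 (-0.07 to 0.39). The probes deviated together (r = 0.94), and the WT groups of the 2 lines differed by 0.01.

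Tm6sf2, a membrane protein of the endoplasmic reticulum that affects how much lipid VLDL carries, was 1.48-fold lower in total ChREBP-KO mice. Probe A_55_P2049122 (mm9 chromosome 8, 72603892 to 72603951) had a lowest, median and highest log2 signal of 10.62, 10.97 and 11.57 in total ChREBP-KO mice and of 11.08, 11.62 and 11.98 in WT littermates. All 7 KO mice were below the WT median and 5 were below every WT mouse. The difference was -0.56 (SE 0.15, limma adjusted p = 0.00538). A probe spanning an exon junction further upstream, A_51_P393671, gave -0.56 as well (SE 0.14, adjusted p = 0.00237), so both probes of the gene were called. Within the 4 slides that held both groups of the total line, the KO mice were lower on 4 of 4 for both probes. Each of these slides held a single KO and a single WT mouse of that line. In ChREBPβ-deficient mice the differences were -0.06 (95% interval -0.36 to 0.24) and 0.0037.

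The 2 deficiencies differed by -0.50 for the leading Tm6sf2 probe (limma adjusted p = 0.114) and by -0.56 for the other (adjusted p = 0.0431). Only the second passed the threshold (8.08% of all probes were called lower in this test). It was not called in 19 of the 31 fits that left out 1 array, where the adjusted p reached 0.0751. The WT mice of the total line differed from those of the ChREBPβ line by 0.26 for the leading probe (limma adjusted p = 0.24). The other probe gave 0.34 (adjusted p = 0.0742), and neither was called. Means of the leading probe were 11.55 in WT and 10.99 in KO mice of the total line, and 11.30 in WT mice of the ChREBPβ line. The levels also depended on the scan day in the WT mice of the total line. There the leading probe read 11.78 to 11.98 in the 4 mice scanned on day 1 and 11.08 to 11.45 in the 4 scanned on day 2. The days did not overlap, which was so for 9.13% of all probes in this group. The difference from total ChREBP-KO mice was -0.76 on day 1 (adjusted p = 0.00985) and -0.40 on day 2 (adjusted p = 0.166), so the direction held on both days and the call on the first.

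Apoa4, an intestinal and hepatic apolipoprotein of triglyceride-rich particles, had the largest difference of the 9 genes, 5.31-fold lower in total ChREBP-KO mice. Its single probe is A_55_P2837366 (mm9 chromosome 9, 46051206 to 46051266). In total ChREBP-KO mice the log2 signals of replicates 1, 2, 4, 5, 6, 7 and 8 were 11.67, 12.51, 11.64, 13.28, 12.06, 15.77 and 11.66. In their WT littermates the lowest, median and highest were 13.69, 15.01 and 16.82. Of the KO mice, 6 lay below all WT mice, and replicate 7 lay above the WT median. The difference was -2.41 (SE 0.50, limma adjusted p = 0.0004), and without replicate 7 it was -2.93. On scan days 1 and 2 taken alone it was -2.46 and -2.23, called on both, and within the 4 slides with both groups it was lower on 3.

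Apoa4 also differed among the other groups without a call. Signals ran from 14.82 to 16.86 with a median of 15.63 in ChREBPβ-deficient mice, and from 15.49 to 17.19 with a median of 16.44 in their WT littermates. Of the 8 deficient mice, 3 lay below all their WT littermates and 7 below the WT median, for a difference of -0.66 (95% interval -1.63 to 0.32). It was 0.43 on scan day 1 alone and -1.45 on day 2 alone, neither called. The deficient mice themselves split by day, with 16.19 to 16.86 in the 3 of day 1 and 14.82 to 15.64 in the 5 of day 2. The WT mice of the total line differed from those of the ChREBPβ line by -1.32 (adjusted p = 0.055), which was called without WT replicate 2 of the total line (-1.57, adjusted p = 0.0209). The order of means was therefore 16.39 ± 0.64, 15.73 ± 0.68, 15.06 ± 1.09 and 12.65 ± 1.5 (SD) from WT of the ChREBPβ line through ChREBPβ-deficient and WT of the total line to total ChREBP-KO, where the last step was called, the first was not, and the middle one was not tested.

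The 2 deficiencies differed in Apoa4 by -1.75 (95% interval -3.16 to -0.34, limma adjusted p = 0.0854). Without KO replicate 7 this became -2.27 (adjusted p = 0.00474). Enterocyte markers were examined beside Apoa4 because the gut makes much of it. Lct and Alpi were well above background on at most 2 of 31 arrays and Sis on 15, which kept them out of the tests. Fabp2 differed by -0.02 between total ChREBP-KO and WT mice and Vil1 was higher in KO mice by 1.55 (adjusted p = 0.00798), opposite to Apoa4. The WT mice of the total line differed from those of the ChREBPβ line by -0.75 in Fabp2 (adjusted p = 0.00286), the direction of Apoa4 between them. The summed signal of Fabp2 and Vil1 ran from 13.76 to 15.38 in total ChREBP-KO mice, highest in replicate 7, and from 13.95 to 14.89 in WT, highest in replicate 2. The part of such RNA in the Apoa4 values was not tested.

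The RNAs whose deviations from the group means were most like those of Apoa4 were a noncoding RNA that the array names by its place on chromosome 19 (probe A_30_P01020769, r = 0.98 over 31 arrays) and Gm10680 (r = 0.97). The Gm10680 probe lies on the minus strand of chromosome 9, 436 bases before the Apoa4 probe, which is on the plus strand. Their differences in total ChREBP-KO mice were -1.76 and -1.54 (limma adjusted p = 0.00373 and 0.00123). Apoc2 had rank 6 of all genes for Apoa4, with r = 0.83, the closest likeness between any 2 of the 9 genes.

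**Figure D3:**
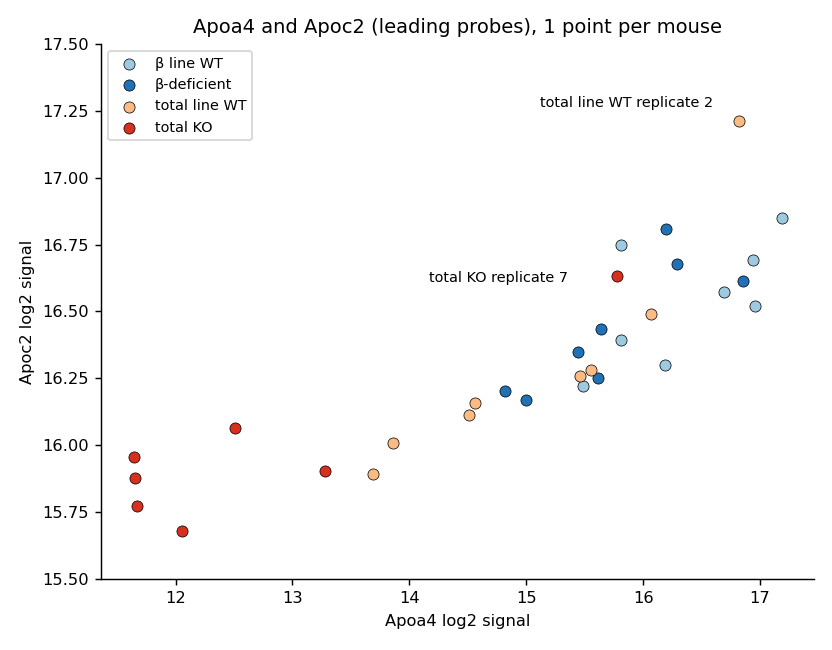
Log2 signal of Apoc2 (vertical axis) against that of Apoa4 (horizontal axis), leading probes, 1 point per mouse with the 4 groups in color. The total ChREBP-KO mice sit at the lower left except replicate 7, which has 15.77 for Apoa4 and 16.63 for Apoc2, and WT replicate 2 of the total line has the highest Apoc2 signal, 17.21.

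Apoc2, the cofactor that Lpl needs, missed the threshold in total ChREBP-KO mice. For probe A_51_P334979 (mm9 chromosome 7, 20257027 to 20257086, minus strand) the lowest, median and highest signals were 15.68, 15.90 and 16.63 in total ChREBP-KO mice and 15.89, 16.21 and 17.21 in WT littermates. Of 7 KO mice, 6 were below the WT median. The extremes at the top were KO replicate 7 and WT replicate 2, the mice that were also highest for Apoa4 in their groups. The difference was -0.32 (SE 0.15, limma adjusted p = 0.115), and the second probe gave -0.33 (adjusted p = 0.123).

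The call on Apoc2 turned on single mice and on the scaling or slide term. Without KO replicate 7 the leading probe gave -0.43 (limma adjusted p = 0.0249), whereas without WT replicate 2 it gave -0.19 (adjusted p = 0.28). With both left out, a choice made after seeing the data, it was -0.30 (adjusted p = 0.0443). With all mice kept, a fixed slide term also gave a call at -0.47 (limma adjusted p = 0.0461). So did median signals on the 75th percentile scale, at -0.39 (adjusted p = 0.0497). The pancreatic markers of WT replicate 2 are given above, and their part in its Apoc2 signal was not tested. In the ChREBPβ line the signals ran from 16.17 to 16.81 in deficient mice and from 16.22 to 16.85 in WT mice, with a difference of -0.10 (95% interval -0.40 to 0.20).

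Apoa5, which promotes lipolysis and whose gene lies in one cluster with Apoa4 and Apoc3 on chromosome 9, was read by 2 probes of which the dimmer one was called. Probe A_52_P292404 (mm9 chromosome 9, 46078579 to 46078638) had a lowest, median and highest signal of 14.02, 14.26 and 14.41 in total ChREBP-KO mice and of 13.24, 13.99 and 14.15 in WT littermates. All 7 KO mice lay above the WT median and 5 above every WT mouse. The difference was 0.40 (SE 0.12, limma adjusted p = 0.0108). The leading probe, A_55_P2830513, ran from 16.39 to 16.95 in KO and from 15.60 to 16.75 in WT mice and gave 0.20 (SE 0.14, adjusted p = 0.30), so the gene was not counted as called. There 5 of the 7 KO mice lay below the WT median, with medians of 16.61 in KO and 16.70 in WT mice. In both probes the KO mice were higher on 4 of the 4 slides with both groups, as the ChREBPβ-deficient mice were on the 4 slides of their line, and the probes deviated together (r = 0.90).

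The Apoa5 WT mice of the total line were spread downward, with replicate 4 lowest in both probes (15.60 and 13.24). They differed from the WT mice of the ChREBPβ line by -0.31 in both probes, without a call. The limma adjusted p was 0.0641 for the dimmer probe and 0.108 for the leading one. In the dimmer probe the total line had means of 13.83 in WT and 14.24 in KO mice. The ChREBPβ line had 14.14 in WT and 14.27 in deficient mice, so the KO mean lay between these. On scan day 2 alone the called probe gave 0.24 (limma adjusted p = 0.283) and on day 1 alone 0.57 (adjusted p = 0.0415). ChREBPβ-deficient mice differed from their WT littermates by 0.06 (95% interval -0.22 to 0.33) for the leading probe and by 0.13 for the other. Mfsd2a and Trex1 had the deviations most like those of Apoa5 (r = 0.74 and 0.76). In total ChREBP-KO mice Mfsd2a, a lysophospholipid transporter, fell by 3.54 (limma adjusted p = 2.02e-05).

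Apoc3, which slows lipolysis and remnant uptake, was among the brightest features on the arrays and its differences were small. Probe A_51_P310629 (mm9 chromosome 9, 46041353 to 46041412, minus strand) had a lowest, median and highest signal of 16.60, 16.69 and 16.76 in total ChREBP-KO mice and of 16.67, 16.84 and 17.00 in WT littermates. All 7 KO mice lay below the WT median, and 3 lay below all WT mice. It fell by 0.16 (SE 0.05, limma adjusted p = 0.0175), that is 1.11-fold. The call was lost on scan day 1 alone (-0.11, adjusted p = 0.327), on day 2 alone (-0.20, adjusted p = 0.107) and without KO replicate 7 and WT replicate 2 together (-0.14, adjusted p = 0.0591).

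The leading Apoc3 probe, A_55_P2117155, ranked between 57 and 90 by signal on every array. Quantile normalization sets values by rank, and its signals spanned 17.67 to 17.94 over all mice, and the difference was -0.08 (limma adjusted p = 0.132). Scaled instead to the 75th percentile of each array from the processed signal, the same probe gave -0.15 (adjusted p = 0.0108), so its call depended on the scaling while its direction did not. The remaining probe, A_55_P2013710, for another transcript, gave 0.01 and deviated with the others weakly (r = 0.10 and 0.24). In ChREBPβ-deficient mice the 3 probes differed by -0.01, 0.03 and -0.11, none called.

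Angptl4, a secreted inhibitor of Lpl that fasting induces, had equal means and opposite differences on the 2 scan days. Over all mice, probe A_51_P338443 (mm9 chromosome 17, 33911880 to 33911939, minus strand) had a lowest, median and highest signal of 12.57, 12.86 and 13.52 in total ChREBP-KO mice and of 12.25, 13.02 and 13.95 in WT littermates. The KO range lay inside the WT range. The difference was -0.02, with a 95% interval from -0.57 to 0.53.

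Within the WT mice of the total line the 4 scanned on day 1 read 12.25 to 12.69 and the 4 scanned on day 2 read 13.35 to 13.95, without overlap. The total ChREBP-KO mice did not split, at 12.57 to 13.52 on day 1 and 12.71 to 13.41 on day 2. The difference was therefore 0.62 on day 1 (limma adjusted p = 0.23) and -0.67 on day 2 (adjusted p = 0.0198). In the ChREBPβ line the WT mice ran from 11.35 to 13.18 on day 1 and from 12.86 to 13.32 on day 2, and the deficient mice were tight, from 12.45 to 13.02 over both days. Days differ in their mice, slides and scans, which cannot be told apart here. Among the 9 leading probes, 2 (Angptl4 and Tm6sf2) split by day in the WT mice of the total line (9.13% of all probes) and 0 in the total ChREBP-KO mice (5.12%). In the ChREBPβ line 2 (Apoa4 and Apoc2) split in the deficient mice (3.95%) and 1 (Mttp) in WT littermates (2.62%).

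**Figure D4:**
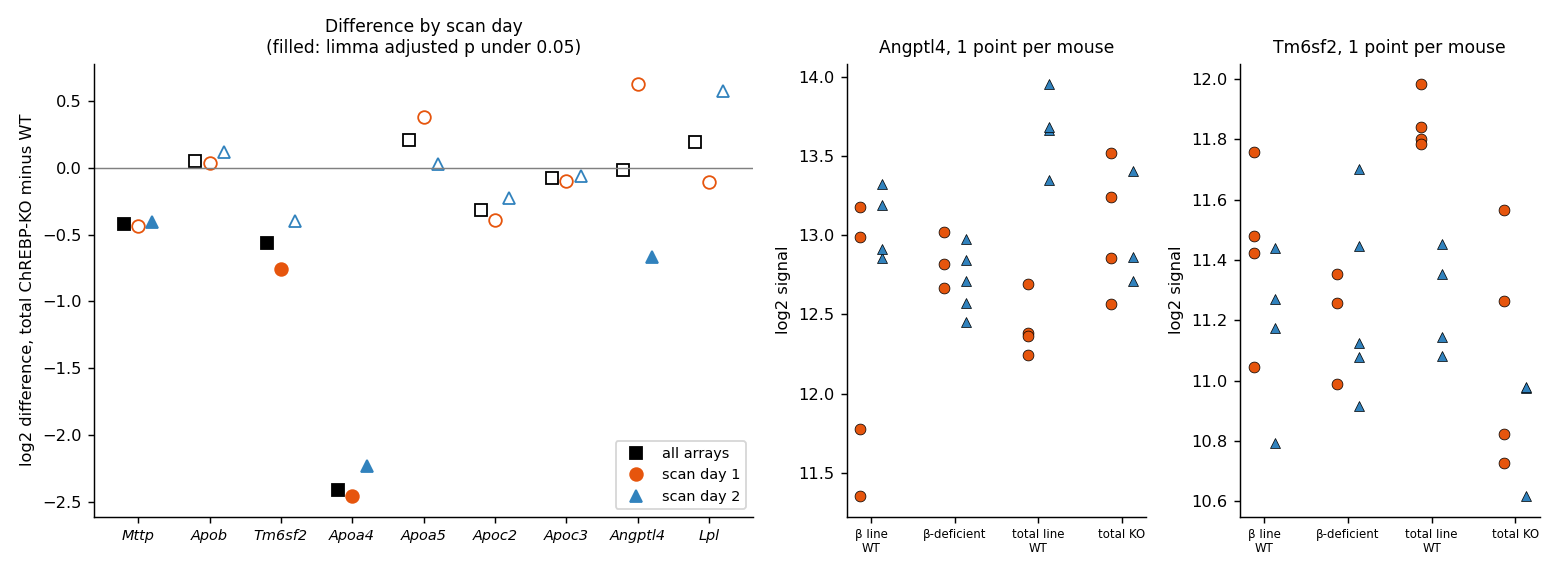
Left, log2 difference of total ChREBP-KO minus WT littermates for the 9 leading probes over all arrays and on each scan day, filled where called; center and right, log2 signals of Angptl4 and Tm6sf2 by group and scan day, 1 point per mouse. The Angptl4 difference is 0.62 on day 1 and -0.67 on day 2, and the WT mice of the total line separate by day in both genes.

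Lpl was read by 6 probes, and none was called in either line. The leading probe, A_51_P259296 (mm9 chromosome 8, 71430267 to 71430326), had a lowest, median and highest signal of 8.50, 9.81 and 10.16 in total ChREBP-KO mice and of 8.82, 9.14 and 10.51 in WT littermates. Of 7 KO mice, 5 were above the WT median, while the highest mouse was WT replicate 2. The difference was 0.19 (95% interval -0.33 to 0.71), and the 6 probes ranged from -0.09 to 0.19. In ChREBPβ-deficient mice the signals were 8.19, 8.52 and 9.18, and in their WT littermates 8.38, 8.99 and 9.85. Of 8 deficient mice, 6 were below the WT median and 3 below all WT mice, for a difference of -0.48 (95% interval -0.99 to 0.02). This was not called (limma adjusted p = 0.989), and it was -0.092 on scan day 1 alone and -0.73 on day 2 alone.

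The Lpl probes did not read as one. A_51_P259296, A_52_P257812 and A_66_P123790 deviated together (r from 0.92 to 0.96), A_55_P2738847 and A_55_P2900592 formed a second set (r = 0.89), and A_55_P2715720 stood apart from both (r from 0.27 to 0.41). The last gave 0.0030 in ChREBPβ-deficient mice where the first 3 gave -0.48, -0.42 and -0.16. Adipocyte markers were examined because fat makes Lpl. Adipoq was well above background on at most 13 of 31 arrays and 0 of the 5 adipocyte markers kept were called in either line. The summed adipocyte signal ran from 10.62 to 13.53 in total ChREBP-KO mice and from 10.66 to 12.68 in WT. Both the highest adipocyte sum of the KO mice and a muscle sum of 11.42 (group median 7.35, highest WT mouse 7.42) were those of KO replicate 6, whose Lpl signal was 10.09. Without it the Lpl difference was 0.11 (limma adjusted p = 0.81). The part of such RNA in the Lpl values was not tested further. Rab7b and Tm2d3 had the deviations most like those of the leading Lpl probe (r = 0.83 and 0.77).

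The remaining likenesses named no other member. They were C1rl and Extl1 for Mttp (r = 0.82 and 0.79), Mcmdc2 and the transcript EU234049 for Apob (0.85 and 0.87), and Mau2, on chromosome 8 like Tm6sf2 itself, with the transcript ENSMUST00000120497 for Tm6sf2 (0.74 and 0.79). For Apoc3 they were Gm15645 and Aldh1b1 (0.73 each) and for Angptl4 Ugt2b34 and Mmd (0.76 each). For Apoc2 they were the chromosome 19 RNA named above (0.86) and a noncoding RNA on chromosome 1, probe A_30_P01030969 (0.85). In total ChREBP-KO mice C1rl, a serine protease related to complement C1r, fell by 0.40 (limma adjusted p = 0.000504). Mmd rose by 0.78 (adjusted p = 1.35e-06) and Ugt2b34 by 0.56 (adjusted p = 3.74e-05), beside Angptl4, which was not called. Aldh1b1 rose by 0.89 (adjusted p = 0.0158), Gm15645 by 0.26 (adjusted p = 0.0375) and EU234049 by 0.26 (adjusted p = 0.0116). The others of this paragraph were not called, apart from the chromosome 19 RNA given above.

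Around the 9 genes, 51 further genes of the same pathways were read, all of them measured, of which 8 rose, 9 fell and 34 were not called in total ChREBP-KO mice. Over all gene names 29.3% were called, 14.4% higher and 14.8% lower. These shares also belong beside the marker counts and the counts of each list below. Where list genes are said below to have groups without overlap, this was so for 7.4% of all probes. The median of the 51 was 0.03. In ChREBPβ-deficient mice 0 of 51 were called by limma (0.00417% of all gene names), with differences from -0.28 to 0.79 and a smallest adjusted p of 0.671. Stellate cell markers also moved in total ChREBP-KO mice, 3 of 5 higher (Reln, Colec11 and Dcn). Their summed signal ran from 14.47 to 15.26 in those mice and from 14.10 to 14.60 in WT littermates. Of 4 pancreatic markers, 2 were lower, with median sums of 11.71 in total ChREBP-KO mice and 11.67 in WT littermates. The highest of these WT sums was the 14.22 of WT replicate 2. Kupffer cell, endothelial and muscle markers gave 0 calls in 6, 5 and 3 measured, with the muscle signal of total ChREBP-KO replicate 6 as given above. Their part in the counts was not tested.

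Among 19 genes of particle assembly and export from the endoplasmic reticulum, 3 rose and 2 fell. Ces1d, a lipase that mobilizes stored triglyceride for VLDL, was higher by 0.62 (limma adjusted p = 0.000564) and A1cf, the partner of Apobec1 in editing Apob mRNA, by 0.52 (adjusted p = 0.000288). Mia3, a cargo receptor for large particles at the exit sites, was higher by 0.42 (adjusted p = 3.02e-06), and all 7 KO mice lay above every WT littermate. Surf4, the export receptor of apolipoprotein B particles, fell by 0.22 (adjusted p = 0.0481) and Pla2g12b fell by 0.21 (adjusted p = 0.0212). Apobec1 itself gave -0.19 and Dgat2, which makes the triglyceride, gave -0.27, and neither was called. Pla2g12b, Apobec1 and Dgat2 were named after their values were seen.

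Of 8 other apolipoproteins, 1 rose and 2 fell. Apoc4, a neighbour of Apoc2, was higher by 0.20 (limma adjusted p = 0.00227), while Apom fell by 0.31 (adjusted p = 0.0213) and Apof fell by 0.24 (adjusted p = 0.00701). For Apoc4 the WT mice of the total line also differed from those of the ChREBPβ line, by -0.16 (adjusted p = 0.0182). The brightest of the 8 (Apoa2, Apoc1 and Apoe) differed by at most 0.03 in their leading probes, at ranks where quantile normalization holds values nearly fixed. Their other probes gave 0.18 for Apoe and 0.08 for Apoa2. Apoa2, Apoc1 and Apoe were named after their values were seen.

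Lipases, lipase regulators and receptors held the largest change, with 2 higher and 3 lower of 14. Vldlr, a receptor for triglyceride-rich particles, was 3.20-fold higher, at 8.27 ± 0.25 (SD, n = 7) against 6.60 ± 0.34 (SD, n = 8), with no overlap (limma adjusted p = 2.1e-07), and its other probe gave 0.82. Lrp1, a hepatic receptor for remnant particles, was higher by 0.28 (adjusted p = 0.0191). Angptl8, printed as Gm6484 in the array names, gave -0.45 (adjusted p = 0.208) and was named after its value was seen. Sorl1, a sorting receptor, fell by 0.65 (adjusted p = 0.00776) and Lipg, endothelial lipase, fell by 0.55 (adjusted p = 0.00246). The other probe gave -0.27 for Sorl1 and -0.76 for Lipg. The Lipg signal was low, with means of 6.05 in WT and 5.50 in KO mice of the total line. In ChREBPβ-deficient mice Vldlr was higher by 0.65 (SE 0.20), which was not called (limma adjusted p = 0.843). The 2 deficiencies differed for Vldlr by 1.03 (adjusted p = 0.0126). The WT mice of the total line differed from those of the ChREBPβ line by -0.47 (adjusted p = 0.104).

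Of 10 transcription factors known to act on these genes, 2 rose and 2 fell. Ppara, the fatty acid sensor that drives oxidation genes, was higher by 0.69 (limma adjusted p = 0.000809), and all KO mice lay above every WT littermate. The WT mice of the total line, however, were lower in Ppara than those of the ChREBPβ line by the same size, -0.69 (adjusted p = 0.00142). Srebf1, the insulin-responsive lipogenic factor, fell by 0.91 without overlap (adjusted p = 5.38e-06). Creb3l3, which activates apolipoprotein genes such as Apoa4 and Apoc2 in liver, was higher by 0.37 (adjusted p = 0.0217). The bile acid receptor Nr1h4 fell by 0.30 (adjusted p = 0.0279), although its other probe gave 0.17.

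**Figure D5:**
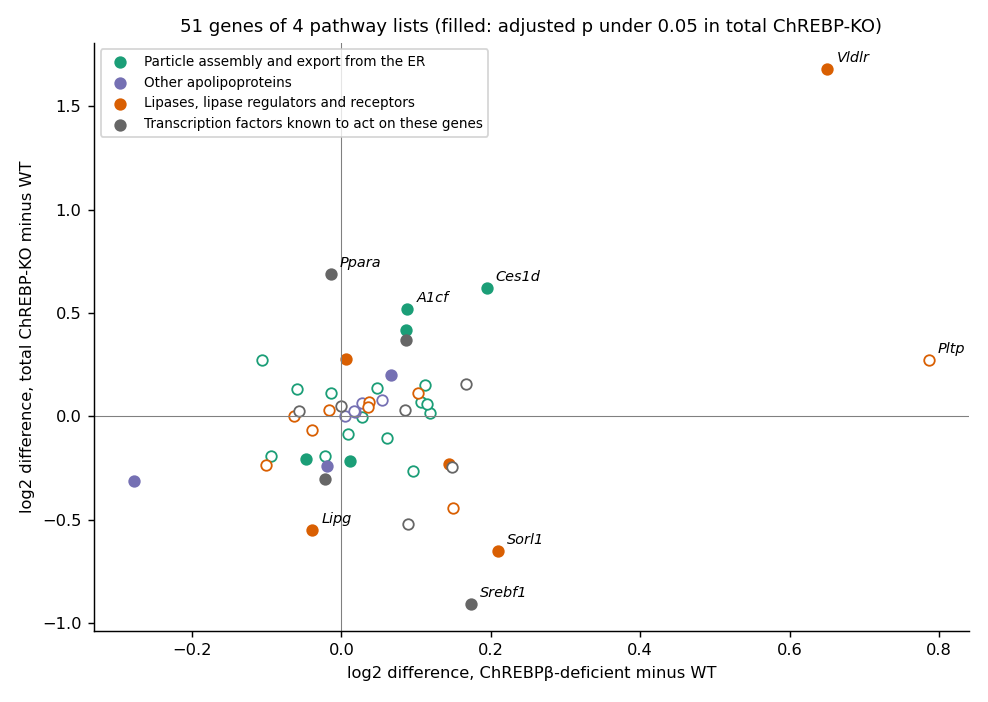
Log2 difference in total ChREBP-KO mice (vertical axis) against that in ChREBPβ-deficient mice (horizontal axis), each minus its own WT littermates, for 51 genes in 4 lists by color, filled where called in total ChREBP-KO mice. Vldlr is highest at 1.68, Srebf1 lowest at -0.91, and Pltp, with 0.79 in ChREBPβ-deficient mice, is not called in either line.

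Pltp, the phospholipid transfer protein, was named after its value was seen. It stood at 10.42 and 11.20 in WT and ChREBPβ-deficient mice of one line and at 8.57 and 8.84 in WT and total ChREBP-KO mice of the other, so that the WT groups differed by -1.85 (limma adjusted p = 2.3e-07) while neither deficiency was called. Between the WT groups, 8 of the 51 genes were called, each lower in the total line, whereas 9.36% of all gene names were called lower and 7.79% higher.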

How the data were processed

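Liver RNA of 31 mice was hybridized to one-color Agilent arrays; replicate 3 of the total ChREBP-KO group was not analysed here. Groups and replicate numbers came from the labels. Per the labels and the methods of the study these are separate mice. Scanner output (Feature Extraction 10.10.1.1) was deposited as intensity per spot, unnormalized, next to quantile normalized log2 values, 1 per probe, that the authors computed. Here the deposited median intensity was put on the log2 scale with no background subtracted. Of 59305 noncontrol spots, 38721 passed the authors' weights on at least 26 arrays or on 6 of 1 group. They were quantile normalized and reduced to the median per probe. The result differed from the deposited log2 table by -0.027 to 0.030 over all but the extreme percentile at each end, and by at most 0.118 for the 21 probes of the members. The number of arrays limits the precision.

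limma 3.58.1 in R 4.3.3 fitted all 4 groups in 1 model, with Benjamini-Hochberg adjustment over all 36059 probes. The comparisons were each deficiency against its WT littermates, the difference of the 2 deficiencies, and the WT groups against each other. The genes named were the 9 members with every probe kept, and Mlxipl. For each member they also included the 2 genes with the highest correlation over 31 arrays after subtraction of group means. In each pathway list they were the 4 called genes with the largest difference. Other names were chosen after their values were seen, as said beside them. The members, lists, markers and motifs were chosen with earlier results of these data known. Probe positions are on mm9 and promoter windows on GRCm38.p6. The fit was tested on simulated data. Alternatives were other signals and scalings (the processed or median signal scaled to the 75th percentile, normexp with offset 50), the deposited values, 2 other filters, slide, scan day and replicate number as blocks, each scan day alone, separate fits, eBayes with trend, the exact Mann-Whitney test, any probe of a gene, and each array left out. Ctage5 and Mia2, and Gm6484 and Angptl8, are names of 1 gene each. A few genes of the lists are not reported here, for a reason other than their values, so the list counts are those of the genes kept. Figures were drawn with matplotlib 3.10.9.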

Additional observations from a re-analysis of the deposited data

Results flagged for a closer look

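In 8 of 84 sets of values (21 probes in 4 groups) 1 mouse lay further from the others than Dixon's 95% limit allows; chance alone gives about 1 in 20 groups, and probes of 1 gene share their mice. Replicate 7 of the total ChREBP-KO mice was high for Apoa4 (15.77) and for both Apoc2 probes (16.63 for A_51_P334979 and 15.00 for A_66_P130918). WT replicate 2 of that line was high for Apoc2 (17.21 for A_51_P334979). Replicate 2 of the ChREBPβ-deficient mice was low for Mttp (12.06) and high for Apoc3 (17.94 for A_55_P2117155) and for the Lpl probe A_55_P2900592 (6.02). WT replicate 2 of the ChREBPβ line was low for Mttp (11.96).

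The change in total ChREBP-KO mice differed from that in ChREBPβ-deficient mice, by limma's test of the difference, for Mttp (-0.42, adjusted p = 0.0229) and for the Tm6sf2 probe A_51_P393671 (-0.56, adjusted p = 0.0431).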

How the results depend on the processing

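Of the 3 genes lower in total ChREBP-KO mice, the count was 5 after scaling median signals to each array's 75th percentile, 2 on scan day 1 alone (without Mttp), 3 on day 2 alone (Angptl4 called and Tm6sf2 not) and 3 to 4 when single arrays were left out. By any probe of a gene, 1 was higher, and 2 were lower in the difference of the 2 deficiencies. That last count was 0 on scan day 1 alone and on day 2 alone, with 1 higher on day 2 (Lpl), and 1 to 2 without single arrays. Between the WT groups, 0 were higher with the slide as a fixed block and on either scan day alone (0 to 1 without single arrays), and 1 was lower with the slide as a random block (0 to 2 without single arrays). In the pathway lists, 2 fell on scan day 1 alone, and 3 rose and 4 fell on day 2 alone; without single arrays 6 to 10 rose and 6 to 10 fell. Without KO replicate 7 and WT replicate 2 together, chosen after seeing the data, 2 were lower in the difference of the deficiencies and 2 between the WT groups. In ChREBPβ-deficient mice the count was 0 in each alternative run. Each cause was not tested, except that a scan day alone holds fewer mice.

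With the replicate number as a block, Mttp gave -0.42, Tm6sf2 -0.56 and Apoa4 -2.47, and 3 member genes were lower. The numbers were not taken to pair the mice, since not every pair correlated above 0.1: 2 of 7 did in the total line (-0.21 to 0.24) and 6 of 8 in the ChREBPβ line (-0.16 to 0.53), and 1 of 7 and 4 of 8 mice matched their own number best.

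The values that changed sign were not called in the full comparison. For total ChREBP-KO against WT they were, with the processed signal scaled to the 75th percentile, Apoc3 A_55_P2013710 -0.0088; without a filter, Mttp A_55_P2344933 -0.0094; with the slide as a random block, Angptl4 0.0091; with the slide fixed, Apoc3 A_55_P2013710 -0.032, Angptl4 0.15 and Lpl -0.0048, -0.071 and -0.098 in A_51_P259296, A_52_P257812 and A_66_P123790; with scan day as a block, Angptl4 0.015. On day 1 alone they were Mttp A_55_P2344933 -0.064, Angptl4 0.62 and 5 Lpl probes at -0.11, -0.073, -0.094, -0.12 and -0.11, and on day 2 alone Apoc3 A_55_P2013710 -0.0082. With the replicate block Mttp A_55_P2344933 was -0.010, without both arrays it was -0.035, and the median of all KO minus WT pairs of mice, the shift that goes with the Mann-Whitney test, was 0.035 for Angptl4.

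For ChREBPβ-deficient mice they were Apoc3 0.0022 (processed signal), Tm6sf2 0.026 (slide fixed) and Angptl4 -0.0012 (scan day as a block) and -0.20 (median of pairs). On day 1 alone they were Mttp 0.030, Apoa4 0.43, Apoc2 0.19 and Apoc3 0.061, and on day 2 alone Tm6sf2 0.084 and Angptl4 -0.36. In the difference of the deficiencies they were Angptl4 0.066 (slide fixed), 0.017 (scan day as a block) and 0.12 (day 1), Lpl -0.013 (day 1), Apoa5 -0.071 and Apoc2 0.055 (day 2). Between the WT groups Apob gave -0.021 (slide fixed) and -0.061 (day 1).

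Leaving out single arrays, total ChREBP-KO values ranged from -0.050 to 0.079 for Mttp A_55_P2344933, -0.010 to 0.14 for Apob, -0.038 to 0.067 for Apoc3 A_55_P2013710 (0.074 without both arrays named above) and -0.13 to 0.11 for Angptl4. ChREBPβ values ranged from -0.067 to 0.051 for Mttp, -0.0081 to 0.10 for Apoa5, -0.037 to 0.0022 for Apoc3, -0.14 to 0.0017 for Tm6sf2 and -0.13 to 0.15 for Angptl4. The difference of the deficiencies ranged from -0.19 to 0.11 for Angptl4, and the WT groups from -0.050 to 0.075 for Apob.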
